A study of Mus musculus with 19 samples.

Results

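Expression of 10 genes of hepatic glucose production was followed in every library of the series: the enzymes Pck1, Pck2, G6pc, Fbp1 and Pcx, the glucose 6-phosphate transporter Slc37a4, the regulators Ppargc1a and Foxo1, and the hormone receptors Gcgr and Insr. They were picked by symbol in the embryo table and by the matching mouse Ensembl gene in the tumour files, and 10 of 10 were found among the 13549 genes of the former and the 17606 genes of the latter. The RNA came from mouse embryo livers at embryonic day 18.5 and from tumours of FL8 cells grown in mice. The fusion embryos carried a DNAJB1-PRKACA-GFP cDNA in the Rosa26 locus behind a loxP-stop-loxP cassette (Rosa26 LSL-DNAJB1-PKA-GFP) together with Alb-Cre, a Cre recombinase under the albumin promoter that becomes active in the liver in the middle of gestation. This fusion of a co-chaperone with a catalytic subunit of the cyclic AMP-dependent kinase, PKA, is the lesion of fibrolamellar carcinoma of the human liver. There were 5 control livers and 4 fusion livers, and the labels do not say which of these alleles the controls carried or which embryos shared a litter. FL8 is 1 cell line, described only as part of these models, and its cells were implanted subcutaneously in NSG mice inside capsules of methacrylated gelatin. These hosts lack T, B and natural killer cells but keep macrophages, vessels and stroma, whose RNA is counted with that of the tumour. Once tumours averaged 75 mm3 the mice were randomized to the methylcellulose carrier (vehicle) or to palbociclib, which inhibits the cell cycle kinases CDK4 and CDK6. The oral dose was 75 mg/kg on a schedule of 3 days on and 4 days off, and the labels do not say when the tumours were collected. There were 5 tumours per treatment, and the labels do not say whether each came from its own mouse, so p-values measure the spread between these samples.

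Gluconeogenesis makes glucose from lactate, amino acids and glycerol, and the liver is its main site. Pyruvate carboxylase (Pcx) turns pyruvate into oxaloacetate, phosphoenolpyruvate carboxykinase (Pck1 in the cytosol, Pck2 in mitochondria) turns oxaloacetate into phosphoenolpyruvate, and fructose bisphosphatase (Fbp1) and glucose 6-phosphatase (G6pc, supplied by Slc37a4 in the endoplasmic reticulum) complete the path to free glucose. Glucagon acts through its receptor Gcgr, cyclic AMP and PKA, which phosphorylates the transcription factor CREB, and the coactivator Ppargc1a and the enzymes Pck1 and G6pc are textbook targets of this route. Insulin acts through Insr and the kinase AKT, which keeps the transcription factor Foxo1 out of the nucleus. In rodents Pck1 is little transcribed before birth.

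In units of 1000000, control libraries held 7.66 to 23.1 counts, fusion libraries 13.5 to 45.6, vehicle libraries 2.96 to 33.9 and palbociclib libraries 24.9 to 43.1. A count of 3, taken as the floor of detection, came to between 0.0658 and 0.392 CPM (counts scaled to a library total of 1000000) in embryo libraries and between 0.0695 and 1.01 CPM in tumour libraries, which covers counting error only. The embryo libraries fell into a set with 9.68% to 10.1% of counts on ribosomal protein genes (control 1 and 2, fusion 8 and 9) and a set with 6.16% to 7.85% (control 3 to 5, fusion 6 and 7). By Xist, control 1 and 2 and fusion 6 to 8 were female and the other 4 embryos male, so that among controls sex and this split cannot be told apart. Prkaca, whose sequence is part of the transgene, lay at 36.3 to 50.5 CPM in control livers and at 52.0 to 114 CPM in fusion livers (log2 difference 0.78 ± 0.22 SE; adjusted p = 0.0379 in edgeR), and how many reads came from the transgene is not given in the sources used here. The 14 hepatocyte markers summed to 185840 to 228263 CPM in control and 195186 to 234975 CPM in fusion livers. In this sum Afp lay at 39200 to 50250 CPM in control and 69947 to 93960 CPM in fusion livers. Of the other markers, all but Hpx had a negative log2 change, from -0.03 for Alb to -0.89 for Apoa1. In tumours the 14 markers summed to 46123 to 130117 CPM with vehicle and 96038 to 144122 CPM with palbociclib. In vehicle 1, mitochondrial genes took 46.6% of the reads, against 1.24% to 6.47% in the other 9 tumours.

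On the mouse genome (GRCm38, GENCODE M21) each member lies at a locus of its own, and only G6pc and Gcgr share a chromosome. Pck1 spans chr2:173153048-173159273 on the plus strand, G6pc chr11:101367561-101377903 on the plus strand, and Ppargc1a chr5:51454250-51567726 on the minus strand. Pcx spans chr19:4510472-4621752, Pck2 chr14:55540266-55551242, Slc37a4 chr9:44396852-44402968, Foxo1 chr3:52268336-52353221 and Gcgr chr11:120530699-120538986, all on the plus strand. Fbp1 spans chr13:62864753-62888282 and Insr chr8:3122061-3279617, both on the minus strand. Exons of Pck2 share 53 bases with the antisense gene Gm10876, and exons of Foxo1 share 674 bases with the antisense gene Gm20402, so that without strand a few reads of these cannot be told apart.

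The 250 bases before the RefSeq transcription start of Pck1, G6pc and Ppargc1a are shown because these are the 3 members that were higher in fusion livers. They are RefSeq sequences of GRCm38.p6, read 5′ to 3′ on the strand of the gene, at chr2:173152823-173153072 (plus strand), chr11:101367466-101367715 (plus strand) and chr5:51567726-51567975 (minus strand). The RefSeq starts of all 3 lie inside the GENCODE spans given above, so the windows run into those spans, and distances are counted from the RefSeq start. Capitals mark matches to the motifs searched on both strands: CGTCA (reverse TGACG), the core of the cAMP response element bound by CREB, its full form TGACGTCA, the insulin response core TGTTTTG (reverse CAAAACA), and TTACGTNA (reverse TNACGTAA), which was added after these sequences had been read.
Pck1: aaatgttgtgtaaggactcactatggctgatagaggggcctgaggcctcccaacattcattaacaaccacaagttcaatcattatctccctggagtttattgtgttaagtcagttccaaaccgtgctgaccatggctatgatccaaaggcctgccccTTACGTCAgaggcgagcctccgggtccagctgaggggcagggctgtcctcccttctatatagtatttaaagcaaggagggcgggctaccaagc
G6pc: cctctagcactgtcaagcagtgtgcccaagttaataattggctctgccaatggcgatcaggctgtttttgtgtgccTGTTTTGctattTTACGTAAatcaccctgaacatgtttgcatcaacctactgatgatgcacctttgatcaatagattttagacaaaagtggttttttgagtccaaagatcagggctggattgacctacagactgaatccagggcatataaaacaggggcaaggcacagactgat
Ppargc1a: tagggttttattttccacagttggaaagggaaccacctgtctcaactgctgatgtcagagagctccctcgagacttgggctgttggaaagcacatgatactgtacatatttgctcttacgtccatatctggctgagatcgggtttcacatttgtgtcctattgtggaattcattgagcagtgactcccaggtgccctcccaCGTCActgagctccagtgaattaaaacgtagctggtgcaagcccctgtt
The Pck1 window holds TTACGTCA from 93 to 86 bases before the start, and the CGTCA match at 90 to 86 lies inside it. In G6pc, TGTTTTG lies 174 to 168 bases before the start and TTACGTAA, which reads the same on both strands, at 162 to 155. Ppargc1a holds CGTCA at 49 to 45 bases before the start. CGTCA or its reverse occurs in 17.8% of all 32851 windows of this length in RefSeq, TGTTTTG in 5.56%, TGACGTCA in 1.55% and TTACGTNA in 0.788%. RefSeq has windows for 9 of the 10 members (all but Insr), 12 windows in all, and none of them holds TGACGTCA. Among the members that fell, Slc37a4 has the CGTCA core in 2 of its 3 windows. Pck2, which did not pass the test, has TGTTTTG at 159 to 153 bases before its start. The windows of Fbp1, Foxo1, Gcgr and Pcx hold none of the motifs. These matches describe letters in a short window and show no binding.

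The first comparison asks how the genes of glucose production differ in the fetal liver that expresses the fusion. Of the 10 members, 7 passed an adjusted p of 0.05 in edgeR's quasi-likelihood test, against 12.8% of the 13316 genes tested, and all 10 members passed the filter on low counts. Pck1, Ppargc1a and G6pc rose, where 5.99% of all genes did. Gcgr, Slc37a4, Insr and Pcx fell, where 6.81% of all genes did. Fbp1, Pck2 and Foxo1 did not pass the threshold. The groups did not overlap for 8 members (all but Pck2 and Foxo1), against 16.5% of all genes tested. The members were chosen with earlier results of these data known, so these counts are no independent test of them. The median log2 change of the 10 members was -0.17, since rises and falls were mixed, and that of all genes was -0.01.

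Pck1, the cytosolic carboxykinase, stood at 5.71, 8.64, 57.0, 26.7 and 30.8 CPM in control 1 to 5 and at 1481, 993, 1163 and 535 CPM in fusion 6 to 9. The lowest fusion liver lay far above the highest control, and within the controls the lowest values were those of control 1 and 2. Its mean went from 25.8 ± 20.6 CPM (SD, n = 5) to 1043 ± 394 CPM (SD, n = 4), which is 40.0-fold in the fit, or a log2 change of 5.32 ± 0.62 SE (adjusted p = 0.000519 in edgeR). Control 1 and 2 also had the highest sums of 8 haematopoietic markers, 4997 and 4749 CPM against 3115 to 4005 CPM in the other controls. In fusion 6 to 9 the sums were 3409, 3295, 4156 and 4090 CPM. Whether these sums bear on the Pck1 levels was not tested. Fewer cells of a type and less RNA per cell cannot be told apart in such whole-tissue libraries. Within the libraries of high ribosomal share the log2 change of Pck1 was 6.95, and within the others it was 5.02. With sex as a covariate it was 6.23. The difference of the effect between the 2 sets of libraries, low minus high share, was -1.92 ± 0.55 SE (adjusted p = 0.129 in edgeR), and 0 of 10 members passed that interaction test, where 0.188% of all genes did.

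Pck2, the mitochondrial form of the same enzyme, was nearly level across all 9 livers, at 72.8, 69.4, 67.5, 72.0 and 72.8 CPM in controls and 75.4, 80.5, 82.3 and 61.2 CPM in fusion livers. Its log2 change was 0.08 ± 0.11 SE (adjusted p = 0.684 in edgeR), with an interval of 2 SE on each side from -0.15 to 0.30. Per kilobase of transcript, the ratio of Pck1 to Pck2 reads ran from 0.136 to 1.47 in controls, with a median of 0.645, and from 15.2 to 34.1 in fusion livers, with a median of 23.0. Pck2 thus gave more reads per length than Pck1 in the median control, and Pck1 gave more in every fusion liver.

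G6pc, the catalytic subunit that releases free glucose, was at 23.1, 34.2, 66.6, 34.7 and 58.0 CPM in controls and at 459, 223, 136 and 70.4 CPM in fusion 6 to 9. The groups did not overlap, but fusion 9 lay close above control 3. The mean went from 43.3 ± 18.2 CPM (SD, n = 5) to 222 ± 170 CPM (SD, n = 4), with a log2 change of 2.36 ± 0.48 SE (adjusted p = 0.00941 in edgeR). Without fusion 6, the liver with the most G6pc, it was 1.73 and still passed (adjusted p = 0.0196 in edgeR). With sex as a covariate the value was 2.33 and the call was lost (adjusted p = 0.0538 in edgeR). Slc37a4, which carries glucose 6-phosphate to this enzyme, went the other way. It was at 424, 478, 384, 259 and 326 CPM in controls and at 90.1, 136, 149 and 242 CPM in fusion livers, a log2 change of -1.28 ± 0.27 SE (adjusted p = 0.0120 in edgeR). Fusion 6 had the most G6pc and the least Slc37a4 of the 9 livers. Fusion 9 lay nearest to the controls in both.

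Fbp1, the fructose bisphosphatase, had the highest level per length of the 10 genes in both groups. It lay at 1073, 992, 1127, 1062 and 1128 CPM in controls and at 1271, 1361, 1173 and 1139 CPM in fusion livers. Every fusion liver was above every control, yet the log2 change of 0.20 ± 0.13 SE did not pass (adjusted p = 0.323 in edgeR). Pcx, which feeds pyruvate into the path, was at 556, 551, 560.0, 483 and 528 CPM in controls and at 396, 407, 292 and 355 CPM in fusion livers, with no overlap. Its log2 change was -0.56 ± 0.14 SE (adjusted p = 0.0209 in edgeR). The call was lost without control 3 (adjusted p = 0.0570 in edgeR) or without fusion 8 (adjusted p = 0.0583).

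**Figure D1:**
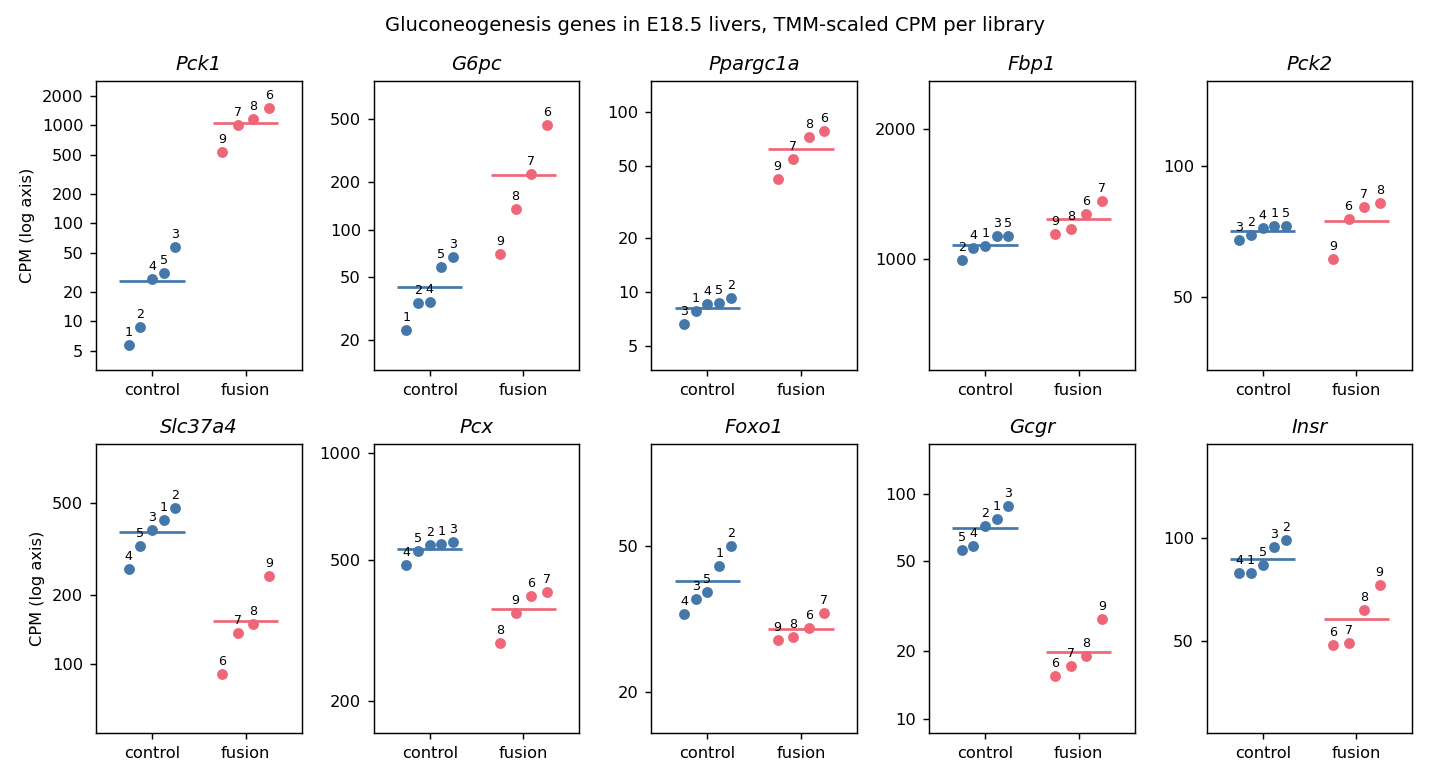
TMM-scaled CPM of the 10 genes in E18.5 livers (log axes, whose ranges differ between panels), with 1 numbered point per library and a line at the group mean for 5 control and 4 fusion livers. Pck1, G6pc and Ppargc1a lie higher in all 4 fusion livers, Gcgr, Slc37a4, Pcx and Insr lie lower, and fusion 9 is the nearest to the controls for 6 of the 7 genes that passed.

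Ppargc1a, the coactivator PGC-1α of mitochondrial and gluconeogenic genes, was even among controls, at 7.85, 9.20, 6.63, 8.55 and 8.73 CPM. The fusion livers had 77.7, 54.4, 72.4 and 42.2 CPM. Its mean went from 8.19 ± 0.999 CPM (SD, n = 5) to 61.7 ± 16.3 CPM (SD, n = 4), a 7.57-fold difference, with a log2 change of 2.92 ± 0.18 SE (adjusted p = 8.45e-06 in edgeR). The call held in all 17 other settings of the embryo fit, with log2 changes from 2.77 to 3.07. Foxo1, the insulin-restrained factor, lay at 44.1, 50.2, 35.9, 32.5 and 37.6 CPM in controls and 29.9, 32.9, 28.2 and 27.8 CPM in fusion livers. Fusion 7 lay just above control 4, the only overlap. Its log2 change of -0.43 ± 0.14 SE missed the threshold (adjusted p = 0.0620 in edgeR). It passed in 6 of 17 other settings, among them DESeq2 (adjusted p = 0.0409) and edgeR with the library split as a covariate (adjusted p = 0.0140). Its change was -0.74 in the libraries of high ribosomal share alone (adjusted p = 0.00934 in edgeR) and -0.17 in the others (adjusted p = 0.281), a difference of 0.57 ± 0.17 SE (adjusted p = 0.14).

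Gcgr, the glucagon receptor, fell in every fusion liver, from 77.3, 71.5, 87.9, 58.8 and 56.0 CPM in controls to 15.5, 17.1, 19.0 and 27.7 CPM. The mean went from 70.3 ± 13.2 CPM (SD, n = 5) to 19.9 ± 5.43 CPM (SD, n = 4), which is 3.55-fold lower in the fit, or a log2 change of -1.83 ± 0.20 SE (adjusted p = 0.000328 in edgeR). Insr, the insulin receptor, was at 79.1, 98.7, 94.1, 79.0 and 83.3 CPM in controls and 48.7, 49.5, 61.6 and 72.8 CPM in fusion livers. Its log2 change was -0.58 ± 0.14 SE (adjusted p = 0.0245 in edgeR), and fusion 9 came close to control 4. This call was the least firm of the 7: it was lost without control 2, control 3, fusion 6, fusion 7 or fusion 8 (edgeR adjusted p from 0.0513 to 0.0802) and in the libraries of high ribosomal share alone (log2 change -0.39, adjusted p = 0.106).

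The 4 fusion livers differed in the size of these changes. Against the control mean, fusion 6, 7, 8 and 9 stood at 3.51, 2.47, 1.75 and 0.80 for G6pc, at 3.25, 2.74, 3.15 and 2.38 for Ppargc1a, and at 6.30, 5.73, 5.96 and 4.84 for Pck1, on the log2 scale. For the receptor Gcgr the differences were -2.16, -2.02, -1.87 and -1.32, and for Slc37a4 they were -2.02, -1.42, -1.30 and -0.60. Fusion 9, the only male of the group, was the fusion liver nearest to the controls for 6 of the 7 members that passed, and fusion 7 was nearest for Pcx. Whether sex, the library split or the level of the fusion goes with this order was not tested.

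**Figure D2:**
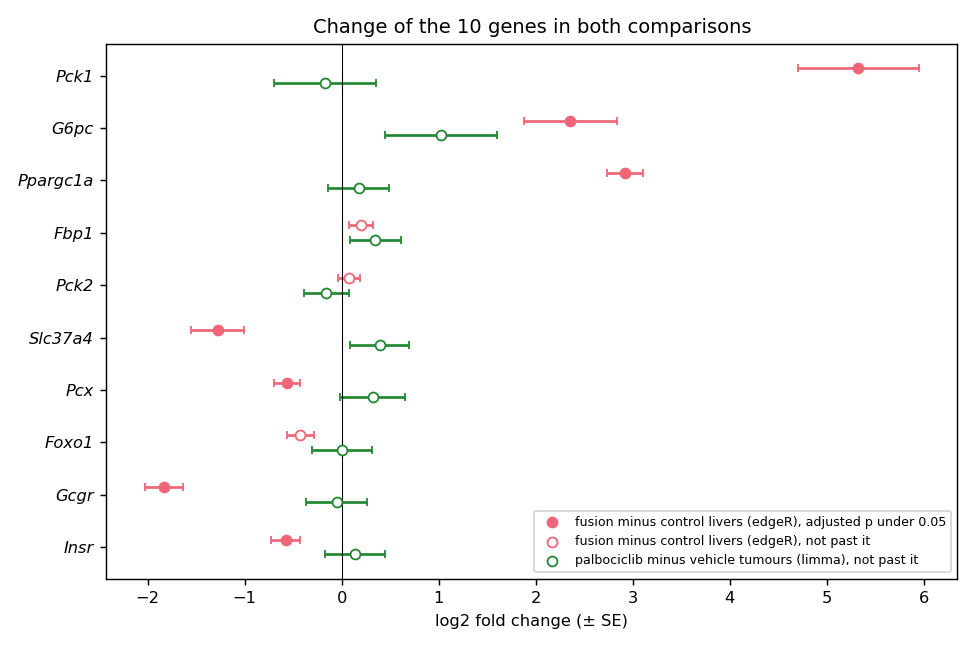
Log2 change ± SE of each gene for fusion minus control livers (edgeR, 5 against 4) and palbociclib minus vehicle tumours (limma on log2(CPM + 1), 5 against 5), with filled points for an adjusted p under 0.05. The 7 filled points all belong to the embryo comparison, from Pck1 at 5.32 to Gcgr at -1.83.

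Divided by the length of the longest coding transcript, the order of the genes can be compared within a group. In control livers Fbp1 led with 728 ± 37.9 CPM per kilobase (SD, n = 5), followed by Slc37a4 at 160 ± 36.3 and Pcx at 129 ± 7.67, whose ranges overlapped. Gcgr followed at 35.9 ± 6.74, clear of its neighbours. G6pc at 17.9 ± 7.53, Pck2 at 15.3 ± 0.506, Pck1 at 9.69 ± 7.75 and Insr at 9.28 ± 0.968 each overlapped the next. Foxo1 at 4.62 ± 0.814 and Ppargc1a at 1.27 ± 0.155 came last, each apart from the gene above. In fusion livers Fbp1 still led at 836 ± 67.8 CPM per kilobase (SD, n = 4), and Pck1 moved from the seventh place to the second, at 392 ± 148. G6pc at 92.0 ± 70.4, Pcx at 87.4 ± 12.5 and Slc37a4 at 65.9 ± 27.2 came next, and neighbours among these overlapped. Pck2 at 16.2 ± 2.06 stood apart from Slc37a4. Gcgr, at 10.1 ± 2.78, overlapped Ppargc1a, at 9.54 ± 2.53, which overlapped Insr at 6.22 ± 1.22, and Foxo1 was last at 3.43 ± 0.270.

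**Figure D3:**
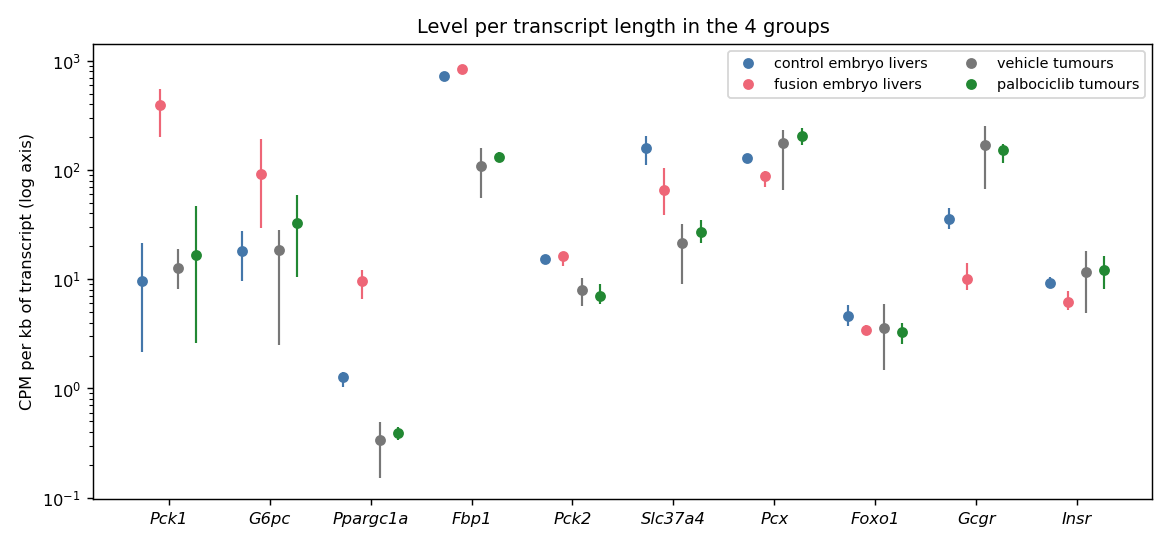
Mean CPM per kilobase of transcript of each gene (log axis) in the 4 groups, with lines from the lowest to the highest library. Pck1 lies at 9.69 in control and 392 in fusion livers, while Ppargc1a is the lowest gene in control livers and in both tumour groups; embryo and tumour levels were scaled separately.

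Around these 10 genes, 91 others of the pathway were read from the same fit in 6 lists. Of these, 87 were in the embryo table and 86 were tested, and 19 rose and 13 fell past the threshold, beside the 12.8% of all genes given above. With the library split as a covariate 36 rose and 16 fell, where 32.6% of all genes passed. The lists were chosen with earlier results of these data known, so these counts are no independent test of the pathway. Among the 11 reversible steps tested, 4 rose and none fell, with a median log2 change of 0.65 against -0.01 for all genes. Got1, the cytosolic aspartate aminotransferase, went from 76.2 ± 6.17 CPM (SD, n = 5) to 1066 ± 264 CPM (SD, n = 4), or a log2 change of 3.81 ± 0.18 SE. The malate dehydrogenases Mdh1 (1.47 ± 0.17 SE) and Mdh2 (0.88 ± 0.14 SE) also rose, each of the 3 with an adjusted p of 0.00246 or less in edgeR. These 3 enzymes interconvert aspartate, oxaloacetate and malate.

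Substrate supply and export was split: 4 of 17 genes rose and 5 fell, with a median of 0.16. The 3 rises with the smallest p were of enzymes that break down amino acids. Tat, tyrosine aminotransferase, went from 11.1 ± 4.09 CPM (SD, n = 5) to 289 ± 82.3 CPM (SD, n = 4), or a log2 change of 4.68 ± 0.32 SE. Sds, serine dehydratase, went from 8.25 ± 1.76 CPM (SD, n = 5) to 191 ± 66.4 CPM (SD, n = 4), a change of 4.53 ± 0.26 SE. Gpt, alanine aminotransferase, rose by 2.61 ± 0.22 SE, and all 3 had an adjusted p of 7.78e-05 or less in edgeR. The 5 genes that fell, named after their values were seen, included Gpt2, the mitochondrial alanine aminotransferase (-0.47 ± 0.12 SE, adjusted p = 0.0285 in edgeR). The others were Aqp9 (-1.51), a glycerol channel, Gpd1 (-0.90), which links glycerol to the path, and the pyruvate dehydrogenase kinases Pdk2 (-0.92) and Pdk4 (-0.73), with adjusted p of 0.0497 or less. Of the 8 opposing glycolytic genes, 1 rose and 3 fell, with a median of -0.22. Pfkfb1, the liver form of the enzyme that makes and breaks fructose 2,6-bisphosphate, fell from 206 ± 34.7 CPM (SD, n = 5) to 59.4 ± 26.3 CPM (SD, n = 4), or a log2 change of -1.80 ± 0.27 SE (adjusted p = 0.00211 in edgeR). Gckr, the glucokinase regulator, fell by 0.59 ± 0.12 SE (adjusted p = 0.0110 in edgeR), and Hk2, a hexokinase of muscle and tumours, rose by 0.95 ± 0.14 SE (adjusted p = 0.00216).

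Of 28 transcription regulators tested, 5 rose and 3 fell, with a median of 0.24. Crem, a cyclic AMP responsive factor, went from 5.21 ± 0.671 CPM (SD, n = 5) to 28.0 ± 6.72 CPM (SD, n = 4), or a log2 change of 2.41 ± 0.18 SE. Sik1, a kinase that restrains CREB coactivators, rose by 1.11 ± 0.15 SE and Esrra, a nuclear receptor partner of Ppargc1a, by 0.79 ± 0.12 SE (adjusted p of 0.00247 or less in edgeR for the 3). The 3 regulators that fell, named after their values were seen, were Trib3 (-0.93), Foxa2 (-0.80) and Cebpa (-0.65), with adjusted p of 0.0303 or less in edgeR. On the glucagon side 4 of 10 genes rose and none fell, with a median of 0.41, and 1 of the 4 was Prkaca, whose sequence is part of the transgene. The 3 with the smallest p were the phosphodiesterases Pde4d (0.84 ± 0.14 SE) and Pde4b (0.95 ± 0.24 SE), which break down cyclic AMP, and Prkar1a (0.63 ± 0.13 SE), a regulatory subunit that holds PKA inactive (adjusted p of 0.0256 or less in edgeR). On the insulin side 1 of 12 genes rose and 2 fell, with a median of 0.27. Irs1, a docking protein of the insulin receptor, rose by 0.67 ± 0.13 SE (adjusted p = 0.00689 in edgeR). Grb10, an adaptor that restrains this receptor and is abundant in fetal liver, fell from 1583 ± 289 CPM (SD, n = 5) to 679 ± 345 CPM (SD, n = 4), a change of -1.22 ± 0.30 SE (adjusted p = 0.0226 in edgeR). Its relative Grb14 fell by 0.65 ± 0.16 SE (adjusted p = 0.0257 in edgeR).

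**Figure D4:**
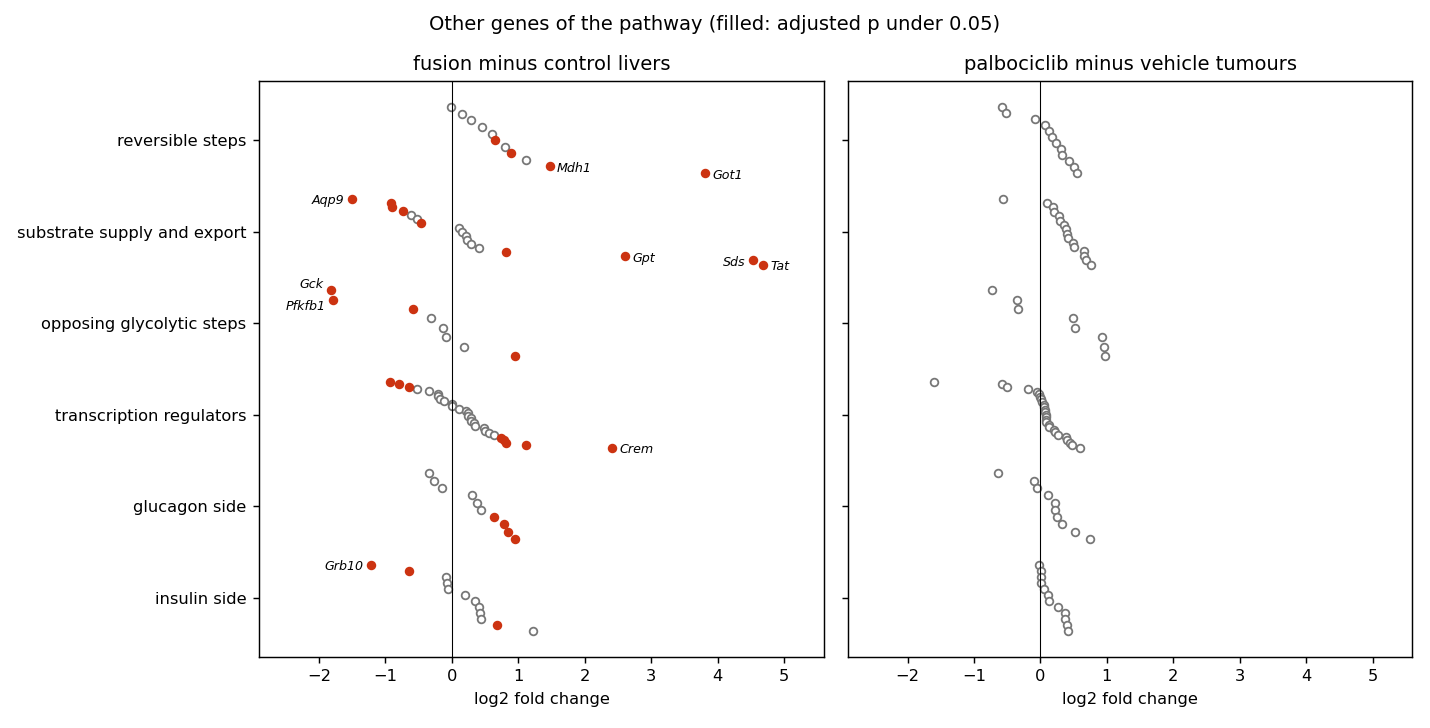
Log2 changes of the other pathway genes, 1 point per gene and 1 row per list, in livers (86 genes tested) and tumours (85 genes tested), with filled points for an adjusted p under 0.05. Got1, Tat, Sds, Gpt and Crem lie far to the right in livers, and no tumour point is filled.

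The genes whose profile over the 9 livers was most like that of Pck1, by the root mean square difference of log2 CPM after both were set to 0 at the control mean, were Tat (0.854), Pcdh20 (0.908), Dapl1 (0.958), Ttyh1 (1.08) and Elfn1 (1.26). The last 4 had control means of 0.36, 0.00941, 0.433 and 0.108 CPM, at or near the floor of detection, so their likeness rests on control counts close to 0. For Ppargc1a the nearest were Mtmr7 (0.230), Asb11 (0.343), Wnt4 (0.351), Bmp7 (0.368) and Cyp4f39 (0.392). Their control means were 1.46, 1.56, 30.8, 1.29 and 0.452 CPM in that order, so all but Wnt4 were low in controls. These numbers describe 9 libraries of 2 groups and are not a test.

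Kidney tubule, small intestine and fat also make several of these enzymes, so their markers were read in the livers. Of 10 kidney markers 3 were in the table, with sums of 8.37 to 17.6 CPM in controls and 5.75 to 9.55 CPM in fusion livers, and the defining Slc34a1, Umod and Aqp2 were not among its rows. Of 7 intestinal markers 2 were present, at 6.37 to 9.03 CPM in controls and 5.10 to 8.42 CPM in fusion livers. Of 9 fat markers 2 were present, Fabp4 and Plin4, at 79.8 to 135 CPM in controls and 91.1 to 161 CPM in fusion livers, and Adipoq and Plin1 were not among the rows. This sum is mostly Fabp4, while Plin4 fell from 3.27 to 4.81 CPM in controls to 1.69 to 2.67 CPM (log2 change -0.85, adjusted p = 0.0180 in edgeR). The 8 macrophage markers summed to 971 to 1097 CPM in controls and 825 to 932 CPM in fusion livers, with 0 markers past the test. The 7 fibroblast markers summed to 241 to 427 CPM in controls and 200.1 to 308 CPM in fusion livers, and Col1a1 (-0.80) and Col1a2 (-0.57) fell (adjusted p = 0.0227 and 0.0467 in edgeR). The part of these gaps in any member's change was not tested. Of the 14 hepatocyte markers 3 passed the test. Afp, the fetal relative of albumin, and Hpx, hemopexin, rose by 0.86 and 1.22 on the log2 scale (adjusted p = 0.0178 and 0.00216 in edgeR). Apoa1, an apolipoprotein, fell by 0.89 (adjusted p = 0.0382 in edgeR). The other markers did not pass, and each had a negative log2 change, from -0.03 for Alb to -0.82 for Fga. The part of this in any member's change was not tested.

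The second comparison asks whether the same genes differ in FL8 tumours after palbociclib. None of the 10 members passed an adjusted p of 0.05 in limma, and neither did any of the 12829 genes tested, a background of 0%. The groups overlapped for all 10 members, where 0.935% of all genes had groups apart. At an unadjusted p under 0.05 there were 0 members and 586 genes, or 4.57% of those tested. DESeq2 on the recovered reads called 8 genes (0.0468%) and edgeR none, and neither called a member. The median log2 change was 0.16 for the members and 0.14 for all genes. The latter was 0.01 after TMM scaling or without mitochondrial genes, so that each tumour difference below is best read against 0.14.

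G6pc had the largest difference among the members. It was at 6.05, 68.7, 60.4, 19.4 and 67.7 CPM in vehicle 1 to 5 and at 141, 47.6, 107, 73.5 and 25.3 CPM in palbociclib 1 to 5. Its log2 change was 1.02 ± 0.57 SE, with an interval of 2 SE on each side from -0.13 to 2.17 (adjusted p = 0.953 in limma). Vehicle 1 held the lowest value, and without it the difference was 0.46. Pck1 varied most between tumours of 1 group: vehicle tumours had 24.7, 40.8, 49.9, 31.7 and 21.7 CPM, and palbociclib tumours had 18.5, 22.2, 124, 48.7 and 6.92 CPM. Both the highest and the lowest of the 10 tumours were thus in the palbociclib group, and the log2 change was -0.17 ± 0.53 SE (adjusted p = 0.979 in limma). It was 0.26 in DESeq2 and 0.25 in edgeR on the reads. Palbociclib 3, with the most Pck1, also had the highest levels of the fat markers Adipoq (1.81 CPM, with 0 in 7 of 10 tumours) and Cidec (6.72 CPM), while the 6 fat markers present summed to 87.8 CPM there and to 57.8 to 151 CPM over all tumours. The part of fat cells in its Pck1 level was not tested. The ratio of Pck1 to Pck2 reads per kilobase ran from 0.789 to 2.44 with vehicle and from 0.405 to 7.83 with palbociclib.

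Slc37a4 was at 21.1, 74.8, 54.1, 49.6 and 54.1 CPM with vehicle and at 81.3, 50.2, 54.0, 80.4 and 52.5 CPM with palbociclib, a log2 difference of 0.39 ± 0.30 SE. Fbp1 was at 81.2, 141, 177, 169 and 234 CPM with vehicle and at 214, 205, 182, 175 and 194 CPM with palbociclib (0.35 ± 0.26 SE). Pcx was at 272, 893, 959, 626 and 903 CPM with vehicle and at 988, 737, 779, 707 and 994 CPM with palbociclib (0.32 ± 0.33 SE). Without vehicle 1 these differences were 0.11, 0.12 and -0.0043. In each of these 3 genes vehicle 1 was the lowest tumour, and the palbociclib values lay within the range of the vehicle values, except for the 2 highest of Slc37a4 and of Pcx. Pck2 was at 26.4, 35.3, 35.6, 38.6 and 47.7 CPM with vehicle and at 29.7, 41.8, 27.5, 34.3 and 29.7 CPM with palbociclib. Its difference of -0.16 ± 0.24 SE had the narrowest interval of the 10, from -0.63 to 0.31.

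Ppargc1a was the weakest member in the tumours. It lay at 0.974, 3.18, 2.38, 2.06 and 2.37 CPM with vehicle, from 7 to 67 reads, and at 2.51, 2.36, 2.19, 2.57 and 2.90 CPM with palbociclib, from 72 to 111 reads. The 7 reads are those of vehicle 5, the shallowest library. Its log2 change was 0.17 ± 0.32 SE (adjusted p = 0.965 in limma). Foxo1 was at 12.8, 51.7, 33.4, 23.9 and 32.8 CPM with vehicle and at 31.1, 27.3, 27.0, 34.8 and 22.2 CPM with palbociclib, a difference of 0.00 ± 0.31 SE that became -0.14 with TMM factors. The receptors were well expressed. Gcgr lay at 130, 490, 387, 301 and 359 CPM with vehicle and at 337, 226, 271, 337 and 321 CPM with palbociclib (-0.05 ± 0.31 SE). Insr lay at 46.1, 169, 113, 113 and 99.5 CPM with vehicle and at 153, 76.8, 123, 109 and 102 CPM with palbociclib, a difference of 0.14 ± 0.31 SE that became -0.01 with TMM factors. Vehicle 2 was the highest of the 10 tumours for Ppargc1a, Foxo1, Gcgr and Insr, and vehicle 1 the lowest for all 4.

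**Figure D5:**
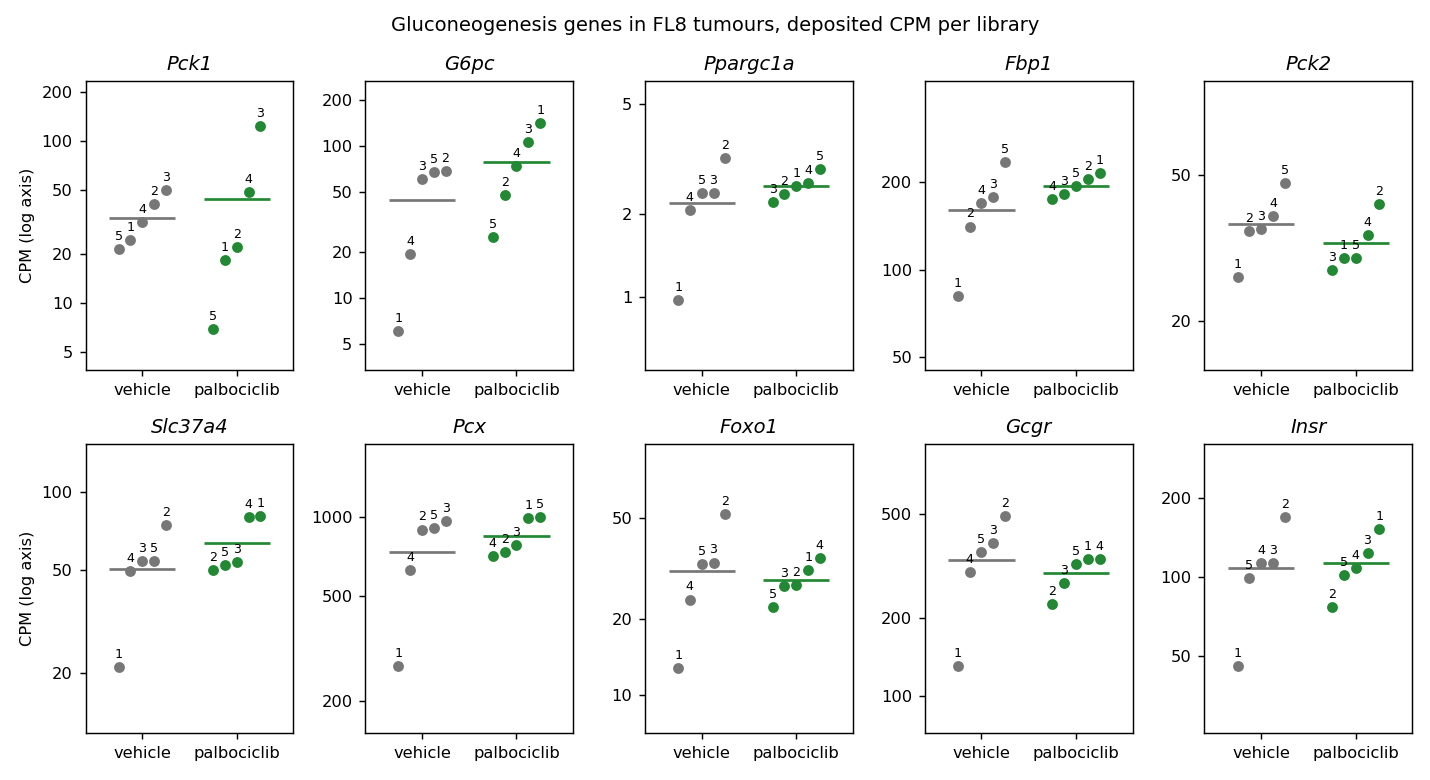
Deposited CPM of the 10 genes in FL8 tumours (log axes, whose ranges differ between panels), with 1 numbered point per library and a line at the group mean for 5 vehicle and 5 palbociclib tumours. The groups overlap in every panel, vehicle 1 is the lowest tumour for 9 of the 10 genes, and palbociclib 3 and 5 hold the highest and lowest Pck1.

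Vehicle 1 was the lowest of the 10 tumours for 9 members, all but Pck1, as deposited. The same library had the highest sums of macrophage markers, 1661 CPM against 78.6 to 352 CPM in the other 9 tumours, and of fibroblast markers, 243 CPM against 39.9 to 197 CPM, and the lowest sum of hepatocyte markers, 46123 CPM. The part of these in its member levels was not tested. With mitochondrial genes left out of the total it was the lowest for 4, namely G6pc, Pcx, Slc37a4 and Ppargc1a. With vehicle 1 and the shallow vehicle 5 both left out, again 0 members and 0 genes passed in limma. Haematopoietic markers took 9.67% of the reads of vehicle 3 and 0.130% to 3.67% of the other tumours, and the part of these cells in the levels of the members was not tested. Of 7 intestinal markers 4 were present, summing to 120 to 415 CPM with vehicle and 313 to 428 CPM with palbociclib, without the defining Cdx2, and of 10 kidney markers 3 were present, at 47.9 to 100.1 and 82.2 to 107 CPM, without Slc34a1 or Umod. Their part in the levels was not tested either. Per kilobase, the order of the members in vehicle tumours was led by Pcx at 176 ± 69.2, Gcgr at 170 ± 67.8 and Fbp1 at 109 ± 37.8 CPM (SD, n = 5), whose ranges overlapped, and ended with Ppargc1a at 0.339 ± 0.123. With palbociclib the same 3 led, at 203 ± 33.7, 152 ± 24.9 and 131 ± 11.01 CPM per kilobase (SD, n = 5). There the range of Gcgr overlapped those of Pcx and Fbp1, while Pcx lay wholly above Fbp1. Ppargc1a was last at 0.388 ± 0.0406. Of the pathway lists, 89 of 91 genes were in the tumour files, 85 were tested and none passed. At an unadjusted p under 0.05 in limma there were 5 of the 85, beside 4.57% of all genes tested. These 5 were Pfkfb1 (log2 difference 0.93 ± 0.30 SE), Pklr (0.97 ± 0.36 SE), Gpt2 (0.65 ± 0.29 SE), Pdk4 (0.76 ± 0.35 SE) and Nr4a1 (-1.59 ± 0.52 SE). Their limma adjusted p was 0.953 each. The other genes named by the same rule were Got2 (0.55) and Got1 (0.51), Cebpb (-0.58), Prkar2a (0.52) and Ramp2 (-0.65), and Grb14 (0.41) and Pdpk1 (0.39), none of which had an unadjusted p under 0.05.

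Over the 10 tumours the profile most like that of Ppargc1a was that of Klc4, with a root mean square difference of 0.0897, followed by Naxd, Rai14, Igfbp4 and Vrk3 at up to 0.116. For Pck1 the nearest were Sod3 at 0.556, Slc5a6, Zfp563, Ino80dos and Zkscan5 at 0.670. These differences were taken on log2(CPM + 1), which compresses low genes such as Ppargc1a.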

How the data were processed

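Livers of 9 mouse embryos and 10 FL8 tumours were grouped by the genotype and treatment in their labels. The embryo table, from poly-A enriched RNA, was deposited by the authors as raw counts for each gene symbol, and a second block of 9 columns, a rescaling of the same counts, was not used. The table's genes have at least 47 counts in sum, so weaker genes are not analysed here. The tumour values are CPM per Ensembl gene deposited by the authors, and 100% of them were whole multiples of 1 read (within 0.001), so reads could be recovered. The submitters' processing notes name STAR 2.5.1b, DESeq2 and mm10 for the embryos, and cutadapt 2.10, HISAT2, featureCounts, DESeq2, R 4.1.2 and mm10 for the tumours, with no role given. Annotation and use of strand are not given in the sources used here. Control tumours had the carrier per the labels, while the series text speaks of PBS, and the labels were followed.

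The liver comparison used edgeR 4.0.16 (R 4.3.3, quasi-likelihood, TMM, filterByExpr). Its SE values are approximate, taken as the absolute log2 change divided by the square root of the F statistic of the test. The tumour comparison used limma 3.58.1 (trend) on log2(CPM + 1), keeping genes whose mean reached 1 CPM, a scale that understates changes of low genes. Benjamini-Hochberg adjustment ran over all genes tested, with a threshold of 0.05. Embryo CPM are TMM-scaled and tumour CPM are as deposited. Lengths are those of the longest coding transcript in GENCODE M21. A gene symbol was found for 17469 of 17606 tumour IDs. Both fits were run on simulated data with large changes, the same dispersion for every gene and no library like vehicle 1. Such runs check the code and not the power of either comparison.

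The 10 members, the pathway and marker lists and the alternatives were chosen with earlier results of these data known. From each pathway list, at most 3 genes past the threshold in livers and 2 in tumours were named, by smallest p, and the 5 genes nearest in profile to Pck1 and Ppargc1a. Falls named outside this rule are marked as named after their values were seen. Alternatives were other size factors, DESeq2 1.42.0, other filters, a pseudocount of 0.1, covariates for sex and the library split, each set of libraries alone, tumour CPM without mitochondrial genes, a replicate block and each replicate left out. The fit without vehicle 1 and 5, the interaction and the motif TTACGTNA were added after seeing the data. Tumours with the same number did not vary together, so numbers were not used as pairs.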

Additional observations from a re-analysis of the deposited data

How the results depend on the processing

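In livers, Pck1, Ppargc1a, Gcgr and Slc37a4 passed the threshold in all 17 other settings, and no member changed direction in any of them. The calls lost by G6pc, Pcx and Insr and gained by Foxo1 stand beside those genes. Members that passed numbered 7 or 8 in the 8 settings with another tool, scaling, filter, covariate or only 1 set of the library split. In those settings 9.64% (sex as a covariate) to 32.6% (library split as a covariate) of all genes passed. Members numbered 5 to 8 when a single liver was left out, where 7.33% to 11.7% of all genes passed. Over all genes, 1704 passed (12.8%), against 4345 (32.6%) with the library split as a covariate. In the libraries of high and of low ribosomal share alone, 2589 (20%) and 2950 (21.8%) passed. Without a single liver 969 to 1581 passed, and the lowest, 969, 987 and 1107, were without control 3, fusion 8 and fusion 7. Genes of the pathway lists that passed numbered 32, against 52 with the library split as a covariate and 50 in the libraries of low share alone. Without a single liver they numbered 23 to 33. The cause of these shifts was not tested.

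In tumours no member and no pathway gene passed in any of 19 other settings, and DESeq2 on the reads was the only one to call any gene, with 8. Directions of small differences were not stable. Foxo1 went from 0.00 to -0.14 with TMM factors, -0.14 without mitochondrial genes, -0.18 in edgeR, -0.20 in DESeq2 and -0.29 without vehicle 1 and 5. In the same order Insr went from 0.14 to -0.010, -0.0084, -0.025, -0.036 and -0.23. The median of all genes moved as well, from 0.14 to 0.0083, 0.0073, -0.046, -0.07 and -0.046 in these settings. The shifts of Foxo1 and Insr are best read against it. Pck1 went from -0.17 to 0.25 in edgeR and 0.26 in DESeq2, and Ppargc1a from 0.17 to -0.0036 without vehicle 1 and 5. Leaving out a single tumour gave -0.27 to 0.22 for Foxo1, -0.14 to 0.32 for Insr, -0.69 to 0.30 for Pck1, -0.36 to 0.12 for Gcgr, -0.0043 to 0.45 for Pcx, 0.46 to 1.36 for G6pc, 0.11 to 0.56 for Slc37a4 and 0.12 to 0.50 for Fbp1. Ppargc1a gave no value under the filter at a mean of 10 CPM. With a replicate block for the tumour numbers, 0 genes and 0 members passed. The correlations of same-numbered tumours ran from -0.317 to 0.00223. No vehicle tumour correlated best with the palbociclib tumour of its own number. No paired analysis was possible in the livers because the groups share no replicate number. Depth limits Ppargc1a most, with 7 reads in vehicle 5.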
